A study of Xenopus tropicalis with 12 samples.

Results

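The response of the wild type (WT) tadpole brain to thyroid hormone was measured by comparing 3 WT libraries treated with T3 (3,5,3′-triiodothyronine) with 3 WT vehicle libraries, 6 of the 12 libraries of the series. The deposited table holds 33875 features, of which 22018 had enough counts to be tested, 17902 of them gene loci with XLOC identifiers and 4116 newly annotated exons (new_exon). The animals were Xenopus tropicalis tadpoles at Nieuwkoop-Faber (NF) stage 54. They were kept for 16 h in 5 nM T3 added to the aquarium water, or for the same time in dilute NaOH as vehicle. Each library pooled the preoptic area, thalamus and hypothalamus, together with the pituitary, of 5 tadpoles. The other 6 libraries came from tadpoles homozygous for a TALEN-made mutation in exon 4 of thra, which encodes the receptor TRα, under the same treatments. They share the fit, so that they also enter the count filter and the spread behind the WT p values. Otherwise they are used here only to ask where the WT response differed from that of the mutant (thra mt-exon4).

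Thyroid hormone acts through TRα and TRβ, nuclear receptors that bind DNA as partners of the retinoid X receptors. Without hormone they hold corepressor complexes at their target genes, and with T3 they exchange these for coactivators. In frogs the hormone drives metamorphosis, and in the tadpole brain it is known to act on neural cell proliferation, on differentiation and on a cascade of induced transcription factors.

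Each feature's level is given in CPM (counts relative to the library size, scaled by the TMM method), or, where levels of different genes are compared, in TPM, a relative transcript abundance that takes length into account. A feature is said to have risen or fallen where edgeR's quasi-likelihood test gave a Benjamini-Hochberg adjusted p under 0.05 over all 22018 features. Errors of log2 fold changes are approximate standard errors (SE), derived from the test. Each is the absolute log2 fold change divided by the square root of the test's F statistic. All errors of levels are SD over 3 libraries. Since each library is a pool of tissue pieces holding many cell types, more transcript per cell and more cells of a type cannot be told apart.

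T3 changed 2399 features in WT brain, 10.9% of those tested. Of these 1182 rose (5.37% of all tested) and 1217 fell (5.53%). Most changes were small: the median log2 fold change was 0.37 among the features that rose and -0.45 among those that fell. Changes of more than 1 on the log2 scale were seen in 105 features that rose and 88 that fell, changes of more than 2 in 35 and 20, and changes of more than 3 in 24 and 8. The levels of the T3 and vehicle libraries did not overlap in 2378 of the 2399 called features, beside 32.4% of all tested features.

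Called features were spread over the whole range of levels. They made up 1.30% of the 4832 features with a mean under 1 CPM over the WT libraries, 8.12% of the 5987 features from 1 to 10 CPM, 16.8% of the 8843 from 10 to 100 CPM and 15.5% of the 2356 above that. Small changes were called where counts were high, and the median log2 fold change of the features that rose went from 2.15 in the lowest class to 0.28 in the highest. Added over the features that rose, the share of the transcriptome was 50941 to 54605 TPM in the vehicle libraries and 68723 to 72756 TPM in the T3 libraries. Over the features that fell it was 51564 to 57842 TPM and 40011 to 41855 TPM, as the choice of these features by the same comparison requires.

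**Figure D1:**
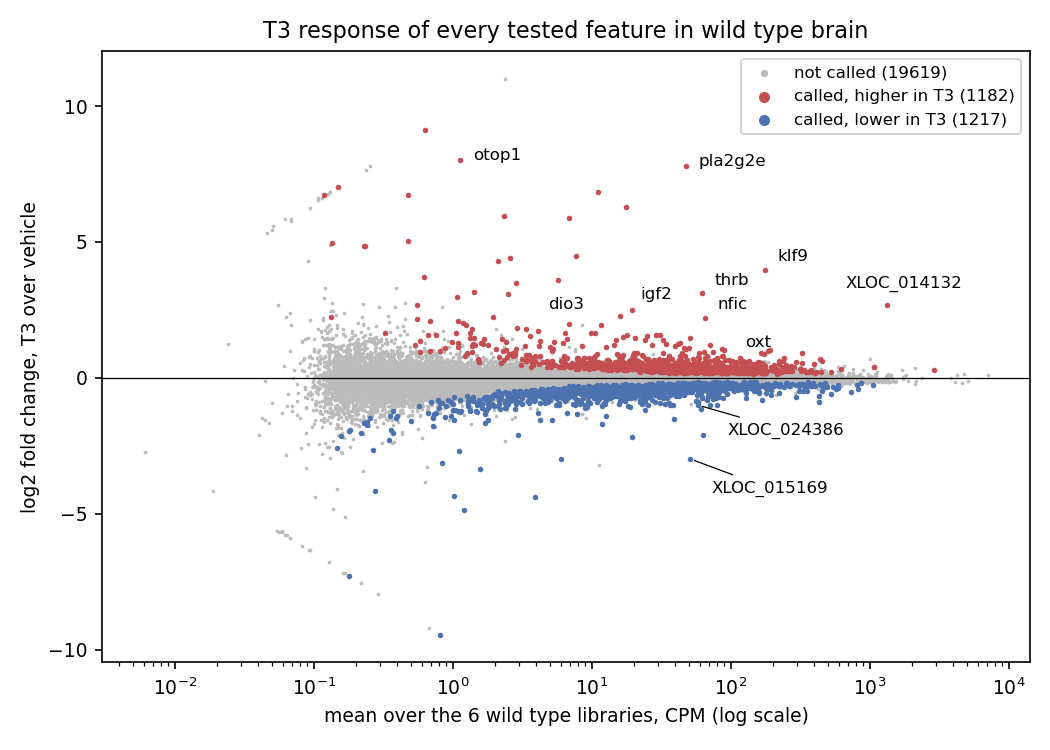
Log2 fold change of T3 over vehicle (vertical axis) of each of the 22018 tested features against its mean level over the 6 WT libraries in CPM (horizontal axis, log scale). Red points are the 1182 features that rose and blue points the 1217 that fell. Of the labelled features pla2g2e, klf9, thrb and XLOC_014132 lie high above 0, and XLOC_015169 and XLOC_024386 lie below it.

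The count of calls depended on which library was left out. Without T3 replicate 1, 2 or 3 in turn, 858, 1459 and 824 features were called, and without vehicle replicate 1, 2 or 3 the counts were 2233, 1711 and 1535. In each of these fits all 2399 features kept the direction of their change. A call in every fit that left out 1 WT library was made for 341 of the features that rose and 318 of those that fell, among them 74 of the 105 that rose by more than 1 and 29 of the 88 that fell by more than 1. The vehicle libraries were more variable than the T3 libraries, with a biological coefficient of variation of 14.8% against 6.96%. Vehicle replicate 3 stood apart: of 17241 features with a vehicle mean of at least 1 CPM, 175 were over 2-fold lower and 50 over 2-fold higher there than in the mean of the other vehicle libraries, beside 45 and 60 for replicate 1 and 11 and 19 for replicate 2. Each library being a pool, p values measure the spread between these pools. The WT libraries held 41012459 to 55717522 expected counts each.

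The genes that the study also assayed by RTqPCR are given first. Of 10 features paired with such genes, 10 rose, with a median log2 fold change of 2.40. Since the study chose several of them from these RNA-seq results, and the genes of this set that it picked as repressed could not be paired with an identifier, the shared direction follows from the choice and is not independent evidence. The gene thrb, which encodes TRβ and is known to be induced by its own ligand in tadpoles, stood at 13.3, 13.5 and 12 CPM in the vehicle libraries and at 118, 100.3 and 116 CPM in the T3 libraries. The groups were far apart, and the rise was 8.61-fold (log2 fold change 3.11 ± 0.09, edgeR adjusted p = 6.5e-10). In TPM it went from a mean of 3.84 to 33.4. The gene dio3, whose deiodinase inactivates T3, was at 3.42, 2.17 and 2.67 CPM with vehicle and at 11.0, 9.69 and 11.9 CPM with T3. Every T3 library lay above every vehicle library, and the log2 fold change was 1.98 ± 0.18 (edgeR adjusted p = 2.3e-05).

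Other parts of the hormone machinery moved less. Of the 10 paired members of this list, 8 rose and 1 fell, with a median log2 fold change of 0.36. Called were 90.0%, beside 61.2% rising and 3.66% falling among all 1504 features paired with a symbol. The retinoid X receptor gene rxrb rose by 0.35 ± 0.07. Among receptor cofactors, the coactivator genes ncoa1 (0.26 ± 0.07) and ncoa3 (0.30 ± 0.08), the arginine methyltransferase gene prmt1 (0.51 ± 0.14) and nrip1 (0.30 ± 0.06), whose product represses nuclear receptor targets, also rose on the log2 scale. The gene tbl1xr1, a component of corepressor complexes, fell by 0.17 on the log2 scale (SE 0.04), from 79.9 ± 1.86 to 71.0 ± 0.54 CPM. The deacetylase gene hdac1 did not pass the test (0.40 ± 0.12, edgeR adjusted p = 0.052). Of all 10 paired members, 7, 5 and 7 were called upward without vehicle replicate 1, 2 or 3, and 5, 7 and 5 without T3 replicate 1, 2 or 3. Without vehicle replicate 1 these included hdac1 (edgeR adjusted p = 0.026), which was not called in the full fit. The calls of ncoa1, ncoa3, prmt1 and tbl1xr1 were each lost without at least 1 WT library, with highest adjusted p values of 0.12, 0.11, 0.13 and 0.087 (edgeR).

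Transcription factor genes held some of the largest rises. The Krüppel-like factor gene klf9, a direct target of the receptor, was at 25.1, 27.0 and 10.6 CPM in the vehicle libraries and at 334, 315 and 345 CPM in the T3 libraries. Vehicle replicate 3 was the lowest, and the groups stayed far apart. The log2 fold change was 3.98 ± 0.26 (15.8-fold, edgeR adjusted p = 1.2e-06, and 4.5e-09 without vehicle replicate 3). The leucine zipper gene thibz was paired with 2 loci, between which expected counts can be shared. At XLOC_028082 it was at 0.418, 0.528 and 0.396 CPM with vehicle and 40.1, 26.8 and 37.6 CPM with T3, a rise from barely detected to well expressed (log2 fold change 6.27 ± 0.26, edgeR adjusted p = 2.5e-08). At XLOC_028061 the vehicle libraries held 5, 0 and 29 counts and the T3 libraries 529, 632 and 764 counts.

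**Figure D2:**
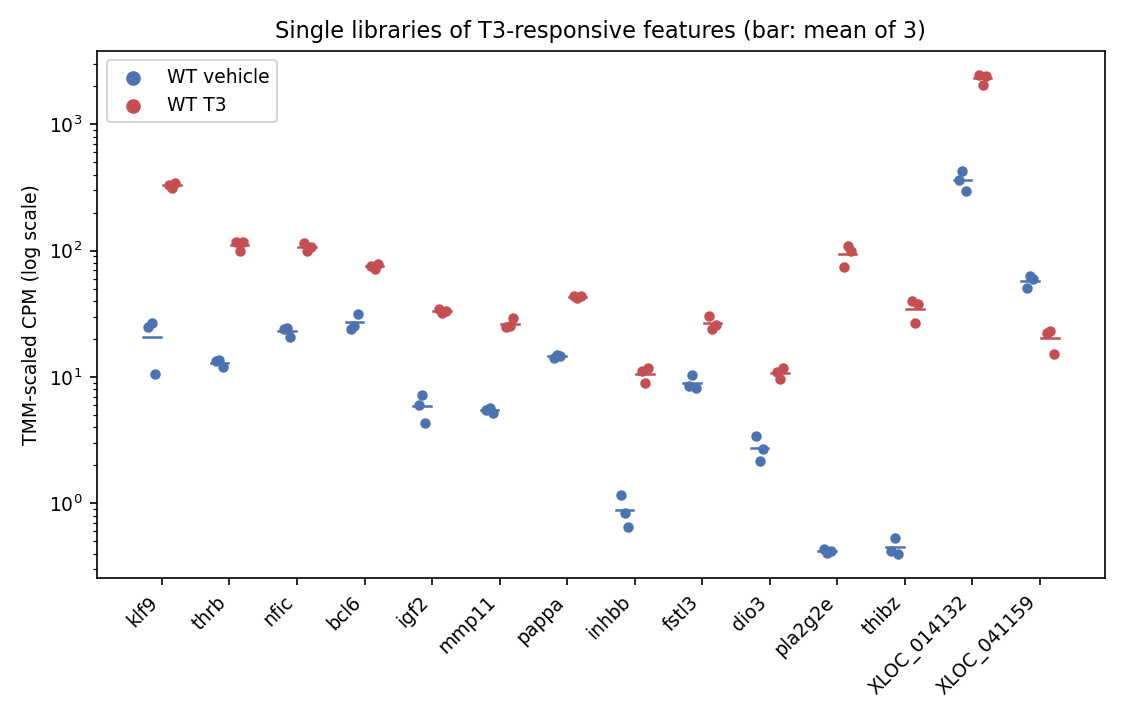
Level in each WT library, in CPM on a log scale (vertical axis), for 14 features that responded to T3 (horizontal axis; for thibz the locus XLOC_028082). Blue points are the 3 vehicle libraries, red points the 3 T3 libraries and bars their means. The groups do not overlap for any of the 14, XLOC_041159 alone is lower with T3, and vehicle replicate 3 of klf9, at 10.6 CPM, lies below its partners.

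The wider list of nuclear receptors and signal-dependent transcription factors had 34 paired members, of which 20 rose and 1 fell, with a median log2 fold change of 0.44. This is 58.8% rising where 61.2% of the 1504 features with a symbol rose and 3.66% fell, since symbols were paired only for features that the study lists as responding. A share near 61.2% in any list is therefore that of the features with a symbol in general. The CCAAT-binding factor gene nfic was at 24.2, 24.6 and 20.6 CPM with vehicle and 116, 99.1 and 106 CPM with T3 (log2 fold change 2.21 ± 0.08, edgeR adjusted p = 6e-09). The repressor gene bcl6 was at 23.9, 25.5 and 31.8 CPM and rose to 75.3, 71.0 and 78.8 CPM (1.47 ± 0.09), and the mineralocorticoid receptor gene nr3c2 went from 17.2, 17.8 and 19.4 CPM to 50.8, 45.7 and 44.7 CPM (1.38 ± 0.08). For these 3 genes the lowest T3 library stood well above the highest vehicle library. The feature that carries the symbols lrrc16a and nfatc1, the latter a calcium-dependent factor, fell by 0.22 on the log2 scale (SE 0.05, edgeR adjusted p = 0.014), and this call was lost without T3 replicate 2 or 3, with a highest adjusted p of 0.074. Called members that rose numbered 15 to 20 when 1 WT library was left out.

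Of the 24 paired transcription factors of neural lineages, 17 rose and 1 fell, with a median log2 fold change of 0.36. Called were 75.0%, beside 61.2% rising and 3.66% falling among all features with a symbol. The gene rcor2, a CoREST-family corepressor of neural progenitors, was at 126, 124 and 94.9 CPM with vehicle and at 217, 208 and 221 CPM with T3 (0.90 ± 0.10, edgeR adjusted p = 0.00021). The neuronal zinc finger gene myt1l went from 163, 197 and 199.8 CPM to 292, 266 and 296 CPM (0.61 ± 0.08), and the SoxC gene sox12 from 13.4, 13.5 and 16.9 CPM to 27.1, 25.5 and 29.8 CPM (0.91 ± 0.14). In all 3 the T3 libraries lay above the vehicle libraries. The gene hmga2, which encodes an architectural chromatin protein of progenitors, was low, at 1.33 ± 0.0478 CPM with vehicle and 2.79 ± 0.518 CPM with T3 (1.06 ± 0.17). The ETS factor gene etv1 fell by 0.22 on the log2 scale (SE 0.06), and its call was lost without vehicle replicate 2 or T3 replicate 2 or 3 (highest edgeR adjusted p 0.11). Of all 24 paired members, 12, 9 and 9 were called upward without vehicle replicate 1, 2 or 3, and 5, 12 and 5 without T3 replicate 1, 2 or 3.

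Secreted and extracellular factors were the list with the highest share of calls after the RTqPCR genes and the hormone machinery. Of 25 paired genes of extracellular proteases and matrix, 21 rose and 0 fell by edgeR, with a median log2 fold change of 0.50. This is 84.0%, beside 61.2% rising among all features with a symbol. The stromelysin-3 gene mmp11, a protease known for tissue remodelling in metamorphosis, was at 5.45, 5.70 and 5.17 CPM with vehicle and 25.1, 25.4 and 29.1 CPM with T3 (2.28 ± 0.10, edgeR adjusted p = 5e-08). The gene pappa, whose protease cleaves IGF-binding proteins, was at 14.2, 15.0 and 14.6 CPM and rose to 43.6, 42.6 and 43.4 CPM (1.57 ± 0.07, edgeR adjusted p = 4.6e-08). The libraries of each group lay close together for pappa, and the groups far apart. The matrix genes frem3 and olfml2b rose by 1.66 ± 0.17 and 0.79 ± 0.09 on the log2 scale. Called members numbered 13 without T3 replicate 1 and 13 without T3 replicate 3, against 16 to 19 without any other WT library.

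Among 29 paired genes of growth factor and TGF-beta family signalling, 17 rose and 2 fell, with a median of 0.36. Called were 65.5%, near the 61.2% rising and 3.66% falling among all features with a symbol. The insulin-like growth factor gene igf2 was at 5.99, 7.23 and 4.36 CPM with vehicle and 34.4, 32.1 and 33.6 CPM with T3, a 5.68-fold rise (2.51 ± 0.17, edgeR adjusted p = 1.7e-06). The gene irs1, encoding an adaptor of the insulin and IGF receptors, went from 57.5, 60.2 and 50.7 CPM to 118, 111 and 120 CPM (1.05 ± 0.07). The gene inhbb, encoding the β subunit of activin B, was at 1.15, 0.838 and 0.647 CPM and rose to 11.2, 9.03 and 11.7 CPM (3.59 ± 0.26), and fstl3, whose product binds activins, was at 8.56, 10.3 and 8.12 CPM and rose to 30.5, 23.9 and 26.0 CPM (1.58 ± 0.12). The prolactin receptor gene prlr and the PDGF receptor gene pdgfra each fell by 0.20 on the log2 scale (SE 0.06). Both calls were lost without vehicle replicate 3 (edgeR adjusted p = 0.13 for each) and without T3 replicate 1 or 3. The call of prlr was also lost without vehicle replicate 2, and that of pdgfra without vehicle replicate 1 or T3 replicate 2 (highest edgeR adjusted p 0.16 for each). The count of 17 was 9, 11 and 10 without T3 replicate 1, 2 or 3 and 14 to 16 without a vehicle replicate. The kinase gene pim3 (1.10 ± 0.07) and the signalling adaptor gene traf3 (1.2 ± 0.09), both RTqPCR genes, rose as well.

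Outside the lists of pathways, the largest rises with a symbol were those of the secreted phospholipase gene pla2g2e and of otop1, one of the inner ear markers, encoding a proton channel known from otolith formation. The gene pla2g2e was at 0.438, 0.401 and 0.417 CPM with vehicle and at 74.6, 109 and 99.1 CPM with T3 (log2 fold change 7.81 ± 0.42, edgeR adjusted p = 3.2e-07). In the vehicle libraries otop1 had 1, 0 and 0 counts and in the T3 libraries 73, 122 and 127 counts, so that no fold is given. The carbonic anhydrase gene ca12 rose from 0.530 ± 0.0761 to 4.46 ± 1.19 CPM.

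Most ribosome assembly genes with a symbol rose by small amounts, at a share near that of all features with a symbol (67.6% and 67.7% for the small and large subunit lists, beside 61.2%). Of 34 paired factors of small subunit assembly 23 rose and 0 fell by edgeR, with log2 fold changes between 0.23 and 0.57 and a median of 0.37. Of 31 paired factors of large subunit assembly 21 rose and 0 fell, with a range of 0.23 to 0.67 and a median of 0.41. Every tested member of both lists had a higher T3 mean than vehicle mean. The same held for all 12 members of the polymerase I list, 23 of translation, 27 of the endoplasmic reticulum and 12 of the proteasome. Among all features with a symbol 921 rose and 55 fell, so that the shared direction follows largely from the pairing. The nucleolar gene utp15 was at 28.3, 27.4 and 23.9 CPM with vehicle and 37.6, 40.0 and 40.4 CPM with T3 (0.57 ± 0.10, edgeR adjusted p = 0.0047). The rRNA methyltransferase gene dimt1l (0.34 ± 0.07), the processome gene heatr1 (0.49 ± 0.11) and krr1 (0.47 ± 0.11) rose too. For the large subunit, brix1 was at 16.1, 14.6 and 13.98 CPM and rose to 21.2, 23.7 and 26.0 CPM (0.67 ± 0.14), beside noc3l (0.42 ± 0.08), the helicase gene ddx54 (0.39 ± 0.08) and nsun5 (0.45 ± 0.09). The small subunit count of 23 was 13, 7 and 8 without vehicle replicate 1, 2 or 3 and 6, 4 and 1 without T3 replicate 1, 2 or 3, and the large subunit count of 21 was 19, 9 and 10 and then 12, 11 and 3. Of the named genes, dimt1l, heatr1, krr1 and brix1 lost their calls without T3 replicate 3 (highest edgeR adjusted p over the left-out libraries 0.063, 0.070, 0.058 and 0.059).

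Of the 12 paired genes of RNA polymerase I and nucleolar RNA modification, 5 rose and 0 fell by edgeR, with a median log2 fold change of 0.42. This is 41.7%, beside 61.2% rising among all features with a symbol. The polymerase I factor gene ubtf was at 192, 188 and 172 CPM with vehicle and 229, 233 and 228 CPM with T3 (0.32 ± 0.06, edgeR adjusted p = 0.0040). The rRNA methylase gene fbl was at 69.0, 64.9 and 60.4 CPM and rose to 80.0, 88.3 and 98.7 CPM (0.46 ± 0.12), beside nop56 (0.32 ± 0.09) and a locus shared by the symbols myoz1 and nolc1 (0.61 ± 0.15). The calls of fbl, nop56 and the shared locus were lost without vehicle replicate 3 (edgeR adjusted p = 0.087, 0.085 and 0.070) and without several other WT libraries, in the case of nop56 each of the 6 (highest 0.13, 0.15 and 0.092), and the count of 5 ranged from 1 to 6 over the left-out WT libraries. The 5 paired genes of cytosolic ribosomal proteins all had lower T3 means, with log2 fold changes between -0.23 and -0.19, and none passed edgeR's test. Among them rps12 had an adjusted p of 0.068. All 5 had an unadjusted p under 0.05, as had every tested member of every list, since only features that the study lists as responding were paired. DESeq2 called 5 of them downward where limma-voom called 0. These counts are not independent evidence of a fall.

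Of 23 paired genes of translation initiation and tRNA charging 16 rose and 0 fell by edgeR, with a median log2 fold change of 0.29. This is 69.6%, beside 61.2% rising among all features with a symbol. The helicase gene eif4a1 was at 404, 385 and 291 CPM with vehicle and 551, 511 and 579 CPM with T3 (0.60 ± 0.12, edgeR adjusted p = 0.0098). The gene eif4g2, a translation regulator and one of the most abundant genes that rose, had a mean of 760.0 TPM with vehicle and 1013 TPM with T3 (0.40 ± 0.09). The initiation genes eif4g3 (0.37 ± 0.08) and eif3j (0.25 ± 0.06) also rose. These 4 calls were lost without T3 replicate 3, and that of eif4g2 also without T3 replicate 1. The highest adjusted p values over the left-out WT libraries were 0.051 for eif4a1, 0.070 for eif4g2, 0.065 for eif4g3 and 0.081 for eif3j (edgeR). The count of 16 was 8, 11 and 7 without vehicle replicate 1, 2 or 3 and 3, 8 and 0 without T3 replicate 1, 2 or 3, with an unadjusted p under 0.05 in 5903 features in the full comparison.

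Many protein folding genes rose by similar amounts, and fewer proteasome genes were called. Of 21 paired cytosolic chaperone genes 14 rose, of 27 endoplasmic reticulum folding and translocation genes 19 rose, and of 12 proteasome genes 4 rose, with medians of 0.34, 0.29 and 0.29 and 0 members that fell by edgeR. The shares called were 66.7%, 70.4% and 33.3%, beside 61.2% rising among all features with a symbol. The gene ahsa1, encoding an activator of the HSP90 ATPase, was at 30.8, 27.6 and 22.2 CPM with vehicle and 44.8, 44.7 and 45.9 CPM with T3 (0.75 ± 0.11, edgeR adjusted p = 0.0012). The HSP40 gene dnaja1 was at 91.5, 85.2 and 82.9 CPM and rose to 117, 132 and 134 CPM (0.56 ± 0.09), beside the cochaperone gene sgta (0.34 ± 0.06) and a locus shared by hsph1 and ubl3 (0.32 ± 0.06). In the endoplasmic reticulum uggt2 (0.48 ± 0.10), hspa13 (0.35 ± 0.07), tmx3 (0.29 ± 0.06) and srp68 (0.27 ± 0.06), a protein of the signal recognition particle, rose. The proteasome activator gene psme3 was at 129, 127 and 101.4 CPM and rose to 164, 166 and 177 CPM (0.50 ± 0.10), and the proteasome subunit genes psmc6 (0.32 ± 0.07), psmc3 (0.26 ± 0.07) and psmd14 (0.33 ± 0.10) rose too.

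Vehicle replicate 3 was the lowest library for these lists. Relative to each member's mean over the 6 WT libraries, the median member of the proteasome list was at -0.01, -0.05 and -0.39 on the log2 scale in vehicle replicates 1, 2 and 3 and at 0.18, 0.08 and 0.17 in the T3 libraries. The chaperone list was at -0.10, -0.11 and -0.32, and the endoplasmic reticulum list at -0.05, -0.10 and -0.27 in the vehicle libraries, whereas the small subunit assembly list was at -0.18, -0.23 and -0.18. Without vehicle replicate 3, 10 chaperone, 7 endoplasmic reticulum and 2 proteasome genes were called, and without T3 replicate 3 the counts were 4, 1 and 0. Without vehicle replicate 1 they were 16, 21 and 10, and without vehicle replicate 2 or T3 replicate 1 or 2 they were 10 to 13, 5 to 9 and 1 to 3. The calls of psmc3 and psmd14 were lost without vehicle replicate 3 (edgeR adjusted p = 0.066 and 0.12) and without any 1 T3 replicate (highest 0.14 and 0.17). That of psmd14 was also lost without vehicle replicate 2. The calls of psme3, psmc6, uggt2, hspa13 and tmx3 were lost without T3 replicate 3, and those of psmc6 and tmx3 also without T3 replicate 1. Their highest adjusted p values over the left-out WT libraries were 0.052, 0.054, 0.056, 0.063 and 0.065.

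**Figure D3:**
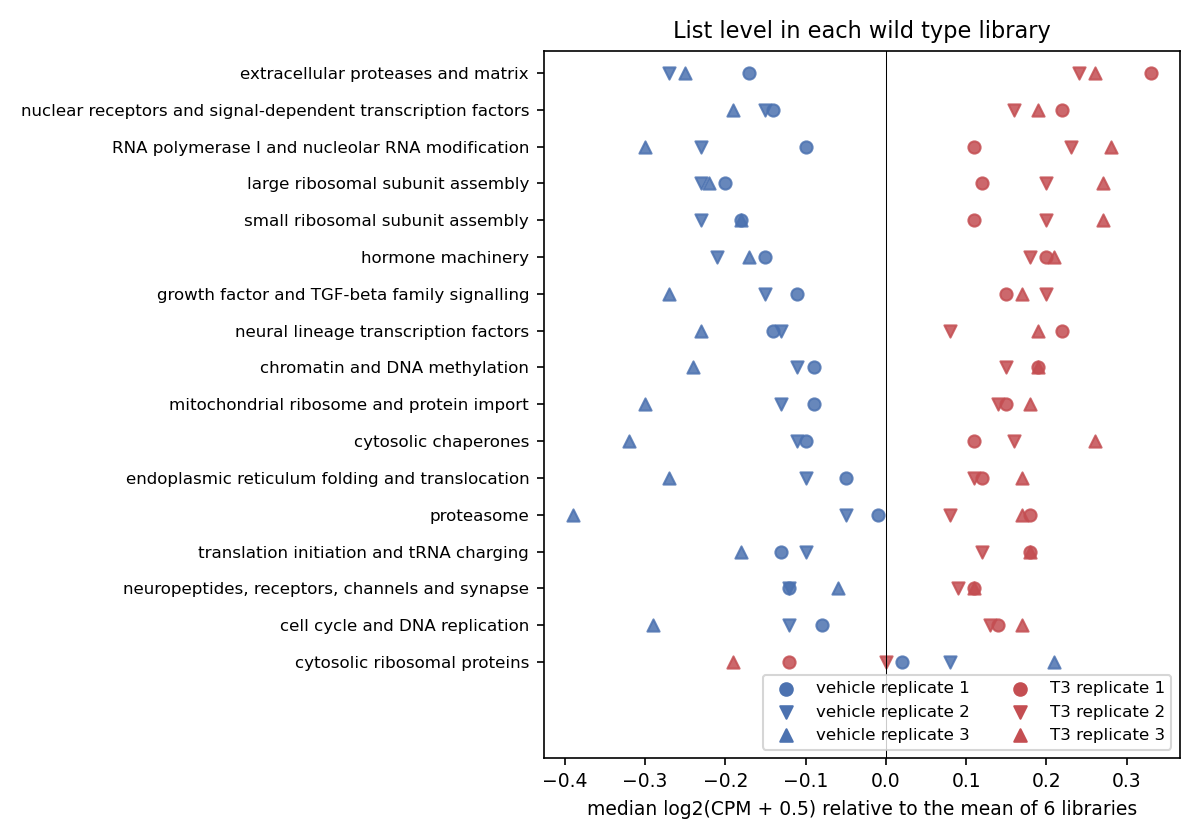
Level of each gene list in each WT library, as the median over its members of log2(CPM + 0.5) relative to the member's mean over the 6 libraries (horizontal axis). Blue symbols are vehicle and red symbols T3 libraries, with a shape for each replicate number. Vehicle replicate 3 lies farthest left for the proteasome list, at -0.39, while the 3 vehicle libraries lie together for both ribosome assembly lists.

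Of 29 paired mitochondrial ribosome and protein import genes 19 rose and 0 fell by edgeR (65.5%, near the 61.2% of all features with a symbol), with a median of 0.35. The mitochondrial ribosome gene mrpl46 was at 9.35, 8.31 and 6.66 CPM with vehicle and 12.03, 12.8 and 12.1 CPM with T3 (0.60 ± 0.12, edgeR adjusted p = 0.0085), and mrpl19 (0.52 ± 0.11), the import chaperone gene timm10 (0.45 ± 0.10) and the inner membrane peptidase gene immp1l (0.38 ± 0.09) rose too. The list's median member was at -0.09, -0.13 and -0.30 in vehicle replicates 1, 2 and 3, and 3 members were called without vehicle replicate 3. The counts were 17 and 7 without vehicle replicate 1 or 2 and 2, 4 and 3 without T3 replicate 1, 2 or 3. The highest adjusted p values over the left-out libraries were 0.057 for mrpl19, 0.058 for timm10 and 0.084 for immp1l (edgeR).

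**Figure D4:**
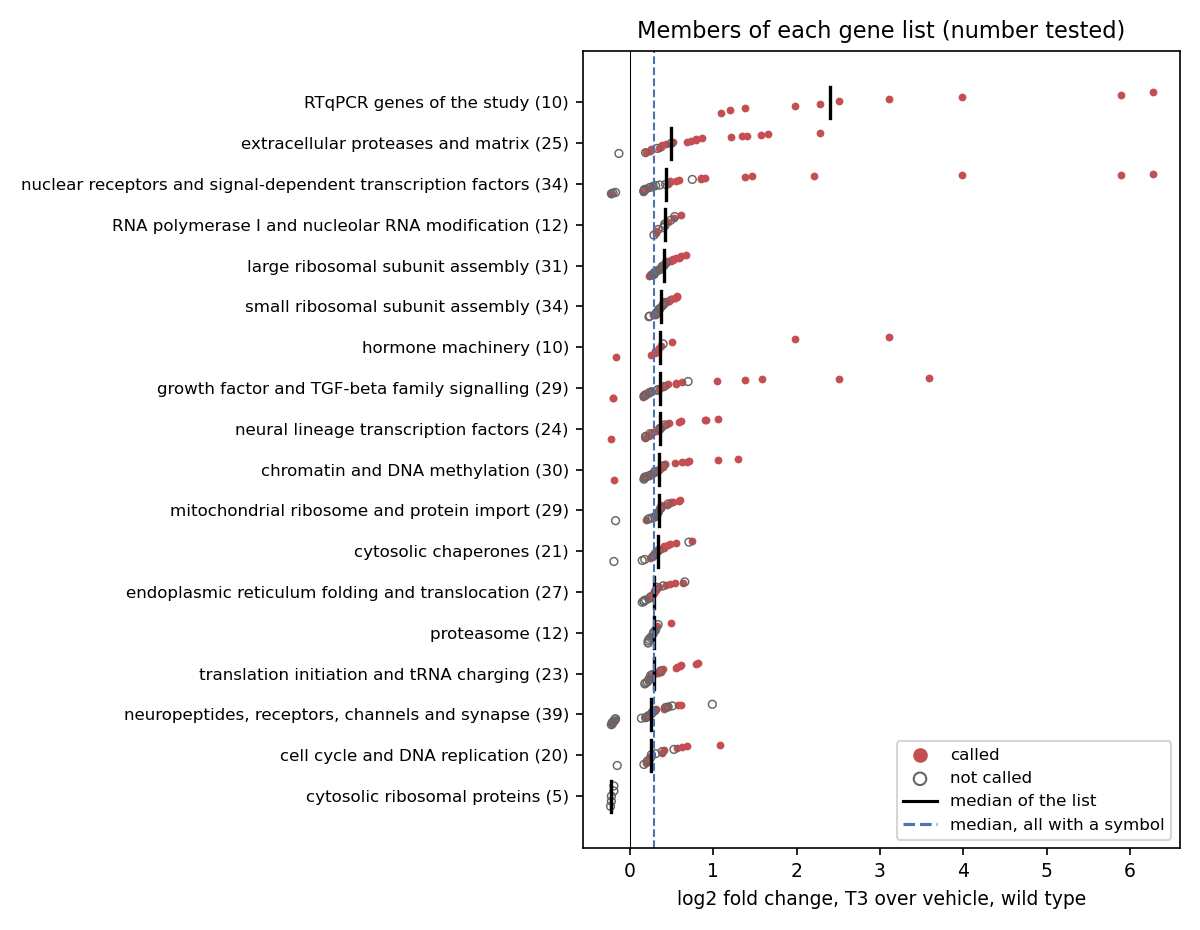
Log2 fold change of T3 over vehicle in WT (horizontal axis) for the tested members of each of 18 gene lists (vertical axis, number tested in parentheses). Filled red points passed the test, open points did not, black bars are list medians and the dashed line is the median of all 1504 features with a symbol, 0.29. Members of the ribosome assembly lists lie between 0.23 and 0.67, and only the 5 cytosolic ribosomal protein genes have a median below 0.

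Of 20 paired cell cycle and DNA replication genes 12 rose and 0 fell by edgeR, with a median log2 fold change of 0.26. The share of 60.0% and this median are near those of all features with a symbol, 61.2% rising and 0.29. The gene cables2, a cyclin-dependent kinase adaptor, was at 20.0, 19.6 and 17.2 CPM with vehicle and 31.4, 30.5 and 29.8 CPM with T3 (0.69 ± 0.07, edgeR adjusted p = 8.5e-05). The cyclin gene ccnj went from 23.9, 24.4 and 19.8 CPM to 35.6, 34.2 and 35.3 CPM (0.63 ± 0.09), and the locus shared by ccnd2 and c12orf5 from 126 ± 13.8 to 167 ± 6.14 CPM (0.41 ± 0.08). The growth arrest gene gadd45g was at 33.6, 37.9 and 17.1 CPM and rose to 71.1, 57.6 and 59.3 CPM (1.08 ± 0.23). Vehicle replicate 3 was the lowest for gadd45g, whose call was lost without T3 replicate 1 (edgeR adjusted p = 0.053). The count of 12 was 13, 9 and 5 without vehicle replicate 1, 2 or 3 and 3, 5 and 5 without T3 replicate 1, 2 or 3.

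Of 30 paired genes of chromatin and DNA methylation 21 rose and 1 fell, with a median of 0.35. Called were 73.3%, beside 61.2% rising and 3.66% falling among all features with a symbol. The de novo DNA methyltransferase gene dnmt3a was at 267, 268 and 261 CPM with vehicle and 379, 393 and 388 CPM with T3 (0.54 ± 0.09, edgeR adjusted p = 0.0027). The histone methyltransferase gene dot1l was at 51.2, 51.4 and 44.8 CPM and rose to 75.9, 78.8 and 87.1 CPM (0.71 ± 0.07). The DNA demethylation gene tet2 (0.37 ± 0.05) and the histone methyltransferase gene nsd1 (0.35 ± 0.05) also rose, so that genes for laying and removing DNA methylation were both among those called. The gene smchd1, which is linked to silencing in mammals, fell by 0.19 on the log2 scale (SE 0.05), a call lost without vehicle replicate 1, 2 or 3 or T3 replicate 1 or 3 (highest edgeR adjusted p 0.16). The count of 21 was 14 without vehicle replicate 3 and 12 and 8 without T3 replicate 1 or 3, against 15 to 22 without another WT library.

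The list of neuropeptides, receptors, channels and synapse was the one with the most calls in the downward direction. Of 39 paired members 16 rose and 5 fell, with a median of 0.26. Called were 53.8%, beside 61.2% rising and 3.66% falling among all features with a symbol. The oxytocin-family gene oxt had the highest mean TPM over the 6 WT libraries of any called gene with a symbol, at 851 TPM with vehicle and 1286 TPM with T3. Its libraries held 136, 138 and 103 CPM with vehicle and 164, 192 and 207 CPM with T3 (0.58 ± 0.14, edgeR adjusted p = 0.024). The call of oxt was lost without vehicle replicate 3 (edgeR adjusted p = 0.074) and without T3 replicate 2 or 3 (highest 0.10). The neighbouring peptide gene avp had a log2 fold change of 0.46 ± 0.17 and did not pass the test (adjusted p = 0.10). The scaffold genes homer3 and homer1 rose by 0.61 ± 0.09 and 0.24 ± 0.04, and the 3 T3 libraries of homer1 agreed closely, at 120, 121 and 120 CPM against 98.0, 104 and 103 CPM. The potassium channel gene kcna4 (0.41 ± 0.08) and the kinase gene pak3 (0.32 ± 0.06) also rose.

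The 5 that fell did so by 0.18 to 0.21 on the log2 scale. The glutamate transporter gene slc1a3, an astroglial gene, went from 901, 932 and 966 CPM with vehicle to 841, 814 and 770 CPM with T3 (SE 0.06, edgeR adjusted p = 0.032). The calcium sensor gene vsnl1 went from 413 ± 24.6 to 366 ± 12.8 CPM, the scaffold gene dlg1 from 129 ± 3.94 to 114 ± 2.46 CPM, the protocadherin gene pcdh8 from 162 ± 11.7 to 141 ± 6.01 CPM and slitrk2 from 44.4 ± 1.88 to 38.9 ± 1.62 CPM. All 5 calls were lost without vehicle replicate 3, without any 1 of the T3 replicates and without 1 other vehicle replicate, with highest adjusted p values of 0.14, 0.17, 0.12, 0.14 and 0.16 (edgeR). The count of 16 that rose was 11, 9 and 14 without vehicle replicate 1, 2 or 3 and 7, 11 and 4 without T3 replicate 1, 2 or 3.

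Very few of the features that fell could be given a symbol: 55 of 1217 (4.52%), beside 921 of the 1182 that rose (77.9%). The part of the study's gene table that pairs identifiers with symbols reaches only the mildest repressions, so the 10 largest falls with a symbol all had a log2 fold change of -0.22. They included psap, encoding the precursor of lysosomal saposins, at 286, 302 and 309 CPM with vehicle and 267, 267 and 237 CPM with T3 (edgeR adjusted p = 0.036), the RNA helicase gene dhx9 (adjusted p = 0.048), the actin-binding gene cald1, and hook2, kiaa0513, rnf208, b4galt1.1 and uhrf1bp1l. Of these 8, uhrf1bp1l alone was called in every fit that left out 1 WT library (highest adjusted p 0.047). The other 7 were each lost without at least 4 of the WT libraries, with highest adjusted p values of 0.16 for psap, 0.15 for dhx9, 0.090 for cald1, 0.10 for hook2, 0.17 for kiaa0513, 0.11 for rnf208 and 0.12 for b4galt1.1.

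The strong repressions are therefore given by identifier. Among features with at least 10 CPM over the WT libraries, the 3 largest falls, chosen after their values were seen, were at XLOC_015169, XLOC_015577 and XLOC_029072. At XLOC_029072 the vehicle libraries held 93.6, 91.9 and 122 CPM and the T3 libraries 23.3, 27.1 and 21.02 CPM, a 4.32-fold fall (log2 fold change -2.11 ± 0.13, edgeR adjusted p = 1.2e-06). At XLOC_015169 they held 60.1, 61.1 and 152 CPM and 8.37, 14.3 and 11.9 CPM (-2.99 ± 0.37), and at XLOC_015577 23.8, 25.4 and 46.5 CPM and 6.22, 8.11 and 6.81 CPM (-2.18 ± 0.24). Vehicle replicate 3 was the highest at all 3 loci, and all 3 calls held without it. The most abundant features that fell by more than 1, also chosen after their values were seen, were XLOC_041159, from 91.5 to 32.3 TPM (-1.52 ± 0.22), XLOC_011244, from 79.7 to 38.7 TPM (-1.04 ± 0.22), and XLOC_024386, from 76.2 to 38.1 TPM (-1.01 ± 0.12). Of these XLOC_011244 lost its call without T3 replicate 3 (edgeR adjusted p = 0.056).

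By the naming rule, the largest falls at 1 CPM or more were XLOC_007048 (-4.86 ± 1.12, edgeR adjusted p = 0.017) and XLOC_033205 (-4.35 ± 0.98, adjusted p = 0.016). Both rested on 1 library: XLOC_007048 had 290, 57 and 9 counts with vehicle and 5, 6 and 0 with T3, and XLOC_033205 had 236, 46 and 13 counts and 3, 8 and 2. Without vehicle replicate 1 their log2 fold changes were -2.93 and -2.55 and neither was called (adjusted p = 0.067 and 0.054). They also lost their calls without T3 replicate 1 or 3 (highest adjusted p 0.081 for each).

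Of the features without a symbol that rose, XLOC_014132 was by far the most abundant among those changed by more than 1, and was chosen after its values were seen. It held 360, 430 and 297 CPM with vehicle and 2474, 2063 and 2411 CPM with T3 (2.68 ± 0.13, edgeR adjusted p = 1.4e-07). Its mean level went from 219 to 1415 TPM, below that of oxt with vehicle (851 TPM) and above it with T3 (1286 TPM). The next was XLOC_037976, at 26.9, 29.7 and 19.3 CPM and then 60.5, 62.2 and 61.5 CPM (1.28 ± 0.18). By the naming rule, XLOC_030373 went from 0.0720 ± 0.0119 to 4.63 ± 0.778 CPM (5.97 ± 0.52) and XLOC_009068 from 0.657 ± 0.240 to 14.9 ± 2.02 CPM (4.48 ± 0.30). These 4 loci were called in every fit. Of the new_exon features 78 rose and 98 fell, or 4.28% of those tested, beside 12.4% of the XLOC features, a difference that was not tested at matched levels.

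Markers of the cell types that the tissue piece could hold were looked up by the same pairing. Markers that the study does not list as responding are therefore missing, and each sum covers the paired markers only. Neuronal markers with a symbol (6 of 8 listed) summed to 2099 to 2322 TPM in the vehicle libraries and 2152 to 2217 TPM in the T3 libraries. Of 8 listed hypothalamic and preoptic markers 5 were paired, oxt and avp among them, with 3 rising (0 without vehicle replicate 3 or T3 replicate 3), and they summed to 1132 to 1412 and 1743 to 2059 TPM, so that the defining peptide genes of the labelled tissue were present. Of progenitor and glial markers 3 of 8 were paired and summed to 1065 to 1092 and 993 to 1058 TPM, with the progenitor gene prom1 rising (0.56 ± 0.06) and the astroglial gene slc1a3 falling (-0.21 ± 0.06). None of the listed pituitary markers was paired with an identifier, so that the pituitary could not be checked.

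The paired markers of tissues around the brain were low but higher with T3. Among all features with a symbol 61.2% rose and 3.66% fell, so that a higher sum follows largely from the pairing. It does not show that transcripts of these tissues increased in general. The 4 paired markers of skin and other epithelium summed to 13.2 to 16.7 TPM with vehicle and 31.5 to 38.5 TPM with T3. Of them 3 rose, with 1 called without T3 replicate 1. Among those that rose was the sodium channel gene scnn1a, at 1.37, 1.68 and 1.44 CPM and then 5.02, 5.62 and 4.96 CPM (1.79 ± 0.21, edgeR adjusted p = 0.00037). The 3 inner ear markers summed to 11.2 to 14.4 and 20.4 to 22.6 TPM, and otop1 and tecta.2 rose (2 called, and 1 without vehicle replicate 1 or 2 or T3 replicate 1 or 3). In the vehicle libraries no paired marker of these lists was at 0 in all 3. The 4 paired cartilage and connective tissue markers summed to 43.1 to 46.5 and 52.2 to 59.3 TPM, with 1 rising (0 without vehicle replicate 2 or any 1 T3 library), and the 3 paired muscle markers, which all share their locus with another symbol, summed to 58.3 to 65.9 and 85.4 to 96.0 TPM, with 3 rising (1 without vehicle replicate 2 or 3 or any 1 T3 library). The markers of microglia and blood cells were represented by cd37 (0.36 ± 0.10, edgeR adjusted p = 0.042, not called without vehicle replicate 1 or 3 or any 1 T3 library) and those of oligodendrocytes by sox8 (0.24, not called). The part of these shifts in the rises of extracellular, epithelial, muscle or inner ear genes was not tested.

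The design also asks where this response depended on genotype. In thra mt-exon4 brains T3 changed 56 features (0.254% of those tested), and the difference of the responses, mutant minus WT, passed the test for 116 features (0.527%), or 51 of the 1504 with a symbol (3.39%). The count of 116 was 42, 54 and 38 without WT T3 replicate 1, 2 or 3, 69 without WT vehicle replicate 2, 71 and 59 without mutant T3 replicate 2 or 3, and 62 without mutant vehicle replicate 1. The count of 56 ranged from 25 to 179 when 1 library was left out, the latter without mutant T3 replicate 1.

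Of the 110 features picked for a large or well-measured WT response or for their place in the hormone machinery, 29 had a response that differed between the genotypes, 26 of them higher and 3 lower with T3 in WT. The absolute log2 fold change of these 29 was smaller in the mutant, which the choice by the WT response favours, and 12 of them were called there. The receptor gene thrb responded with a log2 fold change of 1.51 ± 0.08 in the mutant against 3.11 ± 0.09 in WT, a difference of -1.60 ± 0.12 (edgeR adjusted p = 4.8e-05). The transcription factor gene nfic responded with 0.74 ± 0.08 against 2.21 ± 0.08 (difference -1.47 ± 0.11, adjusted p = 4.8e-05), and mmp11 with 0.64 ± 0.10 against 2.28 ± 0.10 (-1.64 ± 0.14, adjusted p = 0.00019). These 3 were called in both genotypes. In contrast pla2g2e, ca12 and frem3 were not called in the mutant, with log2 fold changes there of -1.86 ± 0.67, -0.14 ± 0.26 and 0.16 ± 0.16. The klf9 response, 2.38 in the mutant, missed the threshold for a difference (-1.61 ± 0.33, adjusted p = 0.051).

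**Figure D5:**
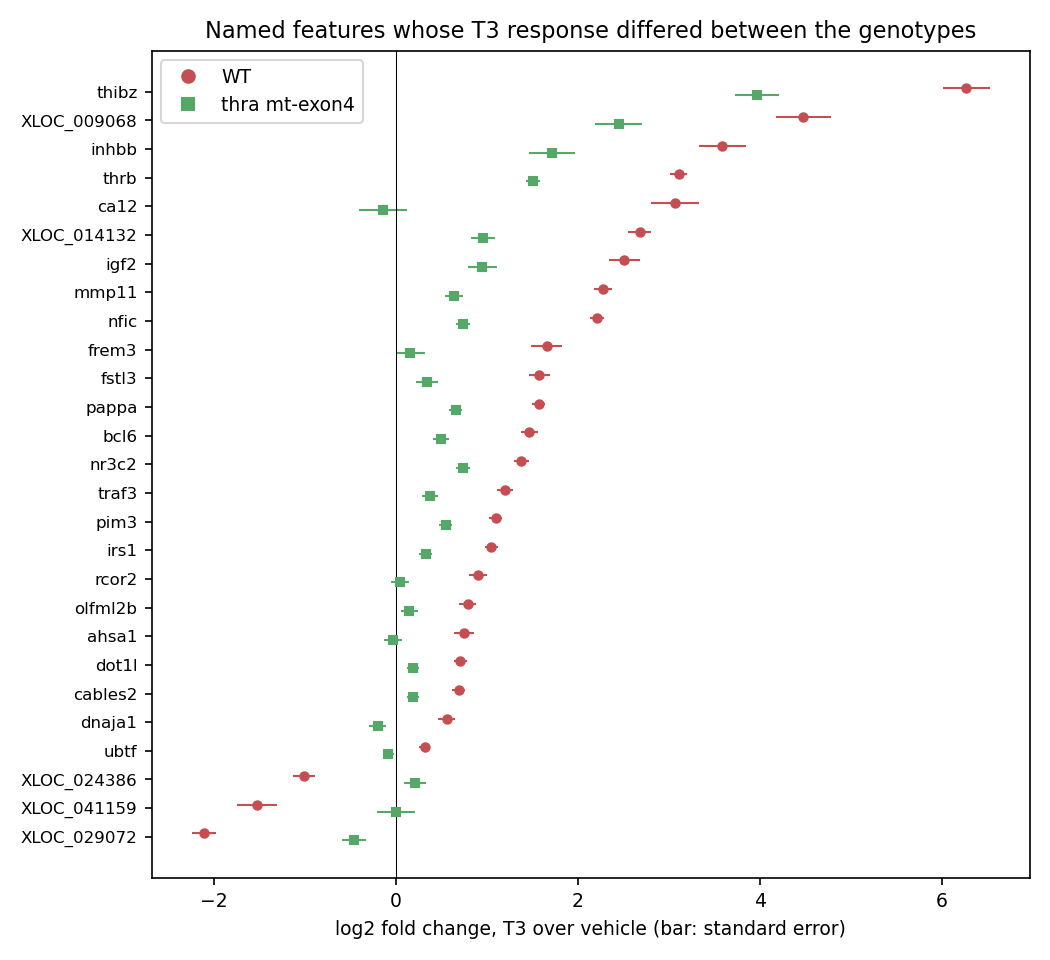
Log2 fold change of T3 over vehicle (horizontal axis, bars are standard errors) in WT (red circles) and thra mt-exon4 (green squares) for 27 named features whose responses differed between the genotypes (vertical axis). The features were picked by their WT response, and every mutant value lies nearer to 0 than its WT value, as for thrb at 1.51 against 3.11, and pla2g2e and XLOC_030373, with differences of -9.66 and -7.09, lie outside the plotted set.

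For other responses no difference between the genotypes passed the test. The deiodinase gene dio3 rose by 1.84 in the mutant, a difference of -0.14 ± 0.25 (edgeR adjusted p = 0.85), and the protease gene adamts10 by 1.13 ± 0.13 against 0.87 ± 0.13 in WT (difference 0.26 ± 0.18, adjusted p = 0.56). Several aminoacyl-tRNA synthetase genes, which charge tRNAs for translation and were singled out after their values were seen, had differences near 0: wars 0.12 ± 0.34, farsb 0.03 ± 0.27 and lars 0.04 ± 0.21. All 3 rose in WT (0.82, 0.80 and 0.62) and had values of 0.93, 0.83 and 0.66 in the mutant that did not pass the test there. Without WT T3 replicate 3, 0 members of the translation initiation and tRNA charging list were called upward, so that these WT calls were lost too. With these errors small differences between the genotypes could not have been seen.

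The neuronal differentiation genes neurod2 and neurod6, also singled out after their values were seen, had opposite signs in the genotypes. Whether their absolute values differed between the genotypes was not tested. In WT neurod6 rose by 0.37 ± 0.09 and in the mutant it fell by 0.50 (SE 0.09), a difference of -0.87 ± 0.13 (edgeR adjusted p = 0.0097). For neurod2 the values were 0.47 ± 0.11 and -0.59 ± 0.11 (difference -1.06 ± 0.16, adjusted p = 0.011), of which the mutant value did not pass the test (adjusted p = 0.054). For both genes every WT T3 library lay above every WT vehicle library, but not both WT calls held in every fit with a library left out. Of the neural lineage list 5 members were called upward without WT T3 replicate 1 and 5 without WT T3 replicate 3. Among these were rcor2, myt1l, sox12 and hmga2, so that neurod2 and neurod6 cannot both have kept their WT calls in either fit. The mutated gene thra could not be looked up, since it was not among the identifiers paired with a symbol.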

How the data were processed

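Libraries were single-end reads of the dissected brain region. Per the methods and the submitters' processing notes, the authors used CASAVA (1.8.2), cutadapt, Bowtie and RSEM on their own gene model, with limma for testing. The deposited tables hold RSEM expected counts, which need not be whole and were rounded here. The deposited TPM values are scaled per transcript length by the authors and were used only for levels. The deposited FPKM values of the authors were not used for results.

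Symbols came from the part of the study's supplementary table used here, which lists responsive features: 1504 of its identifiers were paired with a symbol. Members and gene lists were chosen with earlier results of these data known.

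In R (4.3.3), edgeR (4.0.16) fitted all 12 libraries with TMM scaling, filterByExpr (minimum count 10) and quasi-likelihood tests of T3 against vehicle in each genotype and of their difference, Benjamini-Hochberg adjusted over all 22018 features. In simulated data of the WT comparison, over 21731 features, 37 of 100 changes of 0.5 and 71 of 100 changes of 1 on the log2 scale were recovered, with 5 false calls. Only these features were changed there, and each feature had the same spread in every group. In the data 10.9% of features were called and the groups differed in spread, so that the recovered shares need not hold for them. Alternatives were DESeq2 (1.42.0), limma-voom (3.58.1), other size factors, equal depth, no count filter, gene loci alone, the WT libraries alone, a replicate block and each library left out. Counts of each list by DESeq2, limma-voom and without vehicle replicate 3 were added after seeing the data.

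Named were all RTqPCR and hormone machinery members, the 10 largest changes with a symbol in each direction, up to 4 members of each list with the lowest adjusted p and any called in the opposite direction, the 5 most abundant called features with a symbol, and the 2 largest changes in each direction without one (mean of at least 1 CPM). Others were chosen after seeing the values. 1 member of the hormone machinery list is counted but not reported here.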

Additional observations from a re-analysis of the deposited data

Results flagged for a closer look

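A difference between the responses of the genotypes, mutant minus WT on the log2 scale, passed edgeR's test (adjusted p under 0.05) for 29 of the 110 features picked mainly by their WT response and for 3 list members singled out after their values were seen. Of the RTqPCR genes it was -1.64 for mmp11, -0.55 for pim3, -1.60 for thrb, -0.82 for traf3, -1.56 for igf2, -2.30 for thibz (XLOC_028082) and -0.63 for nr3c2. Of the transcription and chromatin genes it was -1.47 for nfic, -0.97 for bcl6, -0.85 for rcor2 and -0.53 for dot1l. Of the secreted and signalling genes it was -0.91 for pappa, -1.50 for frem3, -0.64 for olfml2b, -0.72 for irs1, -1.23 for fstl3 and -1.87 for inhbb. Of the cell growth and protein folding genes it was -0.50 for cables2, -0.40 for ubtf, -0.78 for ahsa1 and -0.76 for dnaja1. The remaining genes with a symbol were pla2g2e at -9.66 and ca12 at -3.21. The features without a symbol that rose in WT were XLOC_030373 at -7.09, XLOC_009068 at -2.04 and XLOC_014132 at -1.71, and those that fell in WT were XLOC_041159 at 1.52, XLOC_024386 at 1.22 and XLOC_029072 at 1.65. The 3 list members were neurod2 at -1.06 and neurod6 at -0.87, whose responses had opposite signs in the genotypes, and the progenitor gene prom1 at -0.43.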

How the results depend on the processing

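Of the 109 called named features, 60 were called under every alternative that gave them an adjusted p, of 20 alternatives in all. For otop1, counted among the 60, there were 19 such values, since DESeq2 gave it no adjusted p. Of 2176 values under alternatives 1898 were still called, 278 were not and 0 had the opposite sign. The WT count of 2399 was 824 to 2528 with 1 library left out, 1182 upward was 412 to 1292, 1217 downward was 412 to 1274, the 116 differences were 38 to 129 and the 56 mutant calls 25 to 179. DESeq2 called 1812 upward in WT, 393 in the mutant and 655 differences. The WT libraries alone gave 1760 calls in WT (996 upward, 764 downward), and no filter on low counts gave 114 in the mutant. Same-numbered vehicle and T3 libraries did not deviate together over all tested features (correlations -0.004, -0.048 and -0.010). Those with different numbers had correlations from -0.03 to 0.041. Such values, which include features with few counts, cannot decide whether the replicate numbers pair the samples. A replicate block gave 1248 calls in WT (573 upward, 675 downward), 26 in the mutant and 46 differences. Of the features under 1 CPM 1.30% were called, and thinning to equal depth gave 2402 calls in WT. The causes of these shifts were not tested.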
